A study of Mus musculus with 16 samples.

Results

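The ground controls of the Rodent Research Reference Mission-1 came in 2 arms, and the 3 control libraries of the live return arm are set here against the 3 of the ISS arm. Neither side flew, so the comparison holds the differences of handling, timing, hair cycle and tissue make-up that the arms carry with no exposure to space environment (ESE). The libraries were taken by their library names, as 6 of the 16 libraries of the series. All 6 mice were female BALB/cAnNTac mice from Taconic Biosciences, about 10 to 16 weeks old, without any transgene or treatment, kept on the ground in habitats like those of the flight mice, and the study's sample table calls both arms habitat ground controls. The arm names follow the flight mice: mice of the ISS arm were killed in orbit, and mice of the live return arm were killed after landing and a short recovery. Per the paper, flight mice of the live return arm also spent more days in space, and the ground controls were age-matched. Age at killing and time in the habitat may therefore differ between the ground arms, and they cannot be told apart from the arm. The hour, the day and the way in which each ground arm was killed are not given in the sources used here, so those features cannot be told apart from the arm. The remaining 10 libraries came from ESE mice, 5 of each arm, and serve only as side values. Each library is total RNA of femoral (hind limb) skin of 1 mouse, captured with exon baits before sequencing, and the libraries are called ISS controls 1 to 3 and live return controls 1 to 3.

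Skin is a mixture of epidermis, hair follicles, dermis, fat and an underlying sheet of striated muscle. Hair follicles cycle through growth (anagen), regression (catagen) and rest (telogen), and in a young mouse neighbouring follicles of 1 region move through the cycle together. At the onset of growth, stem cells and the hair germ divide under Wnt and Hedgehog signals, matrix cells then proliferate, and the inner root sheath and the hair shaft are laid down with their own keratins, trichohyalin and keratin-associated proteins. Skin cells also run a circadian clock, in which CLOCK and BMAL1 drive the Per and Cry genes that repress them in turn, and they respond to adrenal glucocorticoids, whose level in blood follows the time of day and rises with handling. In bulk skin, fewer cells of a type and less RNA per cell cannot be told apart.

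The libraries differed in depth and make-up before any arm was considered. Total counts were 12046100, 10909376 and 5628795 in ISS controls 1 to 3 and 6369363, 10791347 and 22593931 in live return controls 1 to 3. The ribosomal precursor Rn45s took 14.7 to 45.6% of the counts, the RNA integrity number was 1.8 to 2.7, and the share of fragments over 200 nucleotides (DV200) was 43.5 to 71%. None of 16 such measures separated the arms (two-sided exact permutation tests, smallest p = 0.3, adjusted p = 1, with 0.1 as the smallest p that 3 against 3 allows). Live return control 3 stood apart by its striated muscle RNA. ISS control 3 and live return control 1, the shallowest libraries, had the highest inner root sheath sums, which were mostly trichohyalin RNA. The first principal component took 50.15% of the variance and put live return control 3 at 119.19 against -69.63 to 32.17 for the others, without separating the arms. Keratinocyte genes were high in all 6 libraries, with a summed level of the basal epidermis list of 6871 to 13570.3 CPM, which are counts per 1000000.

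No gene passed the test, the edgeR quasi-likelihood test of 12946 genes with an adjusted p under 0.05 as the threshold, whose smallest adjusted p was 0.456. At an unadjusted p under 0.05, edgeR gave 538 genes higher and 444 lower in the live return arm, or 4.16% and 3.43% of the genes. On the same libraries DESeq2 called 112 genes higher (0.865%) and 123 lower (0.95%), the edgeR likelihood ratio test 44 higher (0.34%) and 86 lower (0.664%), and limma-voom with quality weights 8 higher (0.0618%) and 3 lower (0.0232%). Without live return control 1 the smallest adjusted p of the quasi-likelihood test was 0.141, still with 0 genes called. The count of calls therefore turned on the tool, and every fold change below is a value that did not pass the quasi-likelihood test. Fold changes are log2, live return minus ISS arm, ± SE, from edgeR, and CPM are scaled by TMM. Over all genes tested the median was 0.04, with 53.3% above 0 and 46.7% below, and the 3 libraries of the arms did not overlap for 616 genes with the live return arm higher (4.76%) and for 721 with it lower (5.57%).

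The 10 genes of smallest p in each direction give the shape of the difference. Lower in the live return arm were Thbs1, Cxcl14, Gli1, Gli2, Prss35, Lhx2, Lgr5, Fzd1, Cdk1 and Adgrl3, which include Hedgehog effectors, hair follicle stem cell genes, a Wnt receptor and the mitotic kinase. Higher were Fcna, Per2, Casp12, Fkbp5, Pi16, Papln, Zbtb16, Tef, Cyp2e1 and Retn, which include clock genes, glucocorticoid-responsive genes and an adipocyte hormone. Thbs1 (chr2:118111922-118127133, mm10), which codes for the matrix glycoprotein thrombospondin 1, had the smallest p of all genes. It was at 228, 147 and 234 CPM in ISS controls 1 to 3 and 38.7, 39.97 and 40.3 CPM in live return controls 1 to 3, a fold change of -2.36 ± 0.30 (DESeq2 adjusted p = 6.28e-09, voom adjusted p = 0.0493). The 3 live return libraries were nearly equal, and each lay far under the lowest ISS library. Fcna, a ficolin made by macrophages, was at 0.1296, 0.0696 and 0.252 CPM against 4.89, 2.8 and 2.91 CPM, but the ISS values rest on 1 or 2 counts per library.

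Cxcl14, a chemokine of epidermis and follicle, was at 52.96, 35.9 and 60.7 CPM in the ISS controls and 11.8, 7.13 and 6.48 CPM in the live return controls (-2.57 ± 0.36, DESeq2 adjusted p = 3.07e-06). Prss35, a serine protease family member, was at 2.66, 1.25 and 2.27 CPM against 0, 0 and 0.0447 CPM, where a fold change is not given. The arms did not overlap for either gene. Among the genes that stood higher, Casp12, a caspase of the inflammatory group, was at 0.648, 0.557 and 0.504 CPM against 3.67, 4.07 and 9.75 CPM (3.32 ± 0.58). Pi16, a marker of fibroblasts of the fascia and adventitia, was at 8.49, 9.12 and 15.4 CPM against 51.6, 33.4 and 36.8 CPM (1.9 ± 0.35). Cyp2e1, a cytochrome P450, had a fold change of 2.74 ± 0.55, the matrix protein gene Papln of 1.42 ± 0.27, and on the lower side the Wnt receptor gene Fzd1 of -1.67 ± 0.27 and the adhesion receptor gene Adgrl3 of -1.89 ± 0.32. All 4 were without overlap between the arms.

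**Figure D1:**
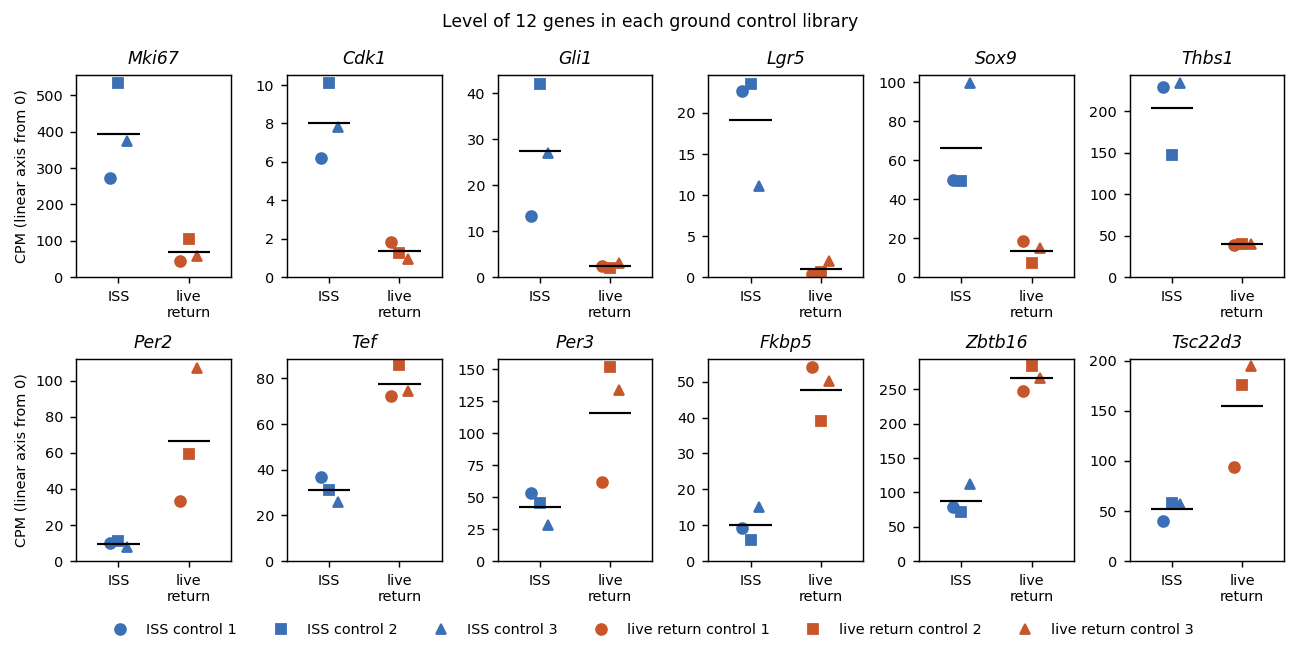
Level of 12 genes in each ground control library, in CPM on a linear axis from 0, with ISS controls in blue, live return controls in orange and a black bar at the mean of each arm (n = 3). In all 12 panels the arms do not overlap, with Mki67, Cdk1, Gli1, Lgr5, Sox9 and Thbs1 lower and Per2, Tef, Per3, Fkbp5, Zbtb16 and Tsc22d3 higher in the live return arm.

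Genes of mitosis were lower in the live return arm with the largest share of members without overlap among the lists described. Of 28 members 27 passed the filter on low counts, and all 27 had a lower fitted level in the live return arm, with a median of -1.96, and 24 of them did not overlap between the arms, against 5.57% of all genes. DESeq2 called 14 of the 27, all lower, against 0.95% of all genes, and the quasi-likelihood test called 0. Summed over the list, the level was 654, 1168 and 880.1 CPM in ISS controls 1 to 3 and 199, 296 and 145 CPM in live return controls 1 to 3, so that the highest live return library lay under the lowest ISS library. The median was -1.67 without live return control 3, the muscle-rich library, and -1.97 with Rn45s and the muscle lists left out of the table.

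Mki67 (chr7:135689788-135716379), which codes for the proliferation antigen Ki-67, was at 273, 533 and 374 CPM in the ISS controls and 44.5, 104 and 58.3 CPM in the live return controls. The arms did not overlap, and the fold change was -2.51 ± 0.46 (DESeq2 adjusted p = 2.20e-04). Cdk1 (chr10:69336635-69352912), the kinase that drives entry into mitosis, was at 6.22, 10.1 and 7.81 CPM against 1.83, 1.27 and 0.939 CPM, a fold change of -2.62 ± 0.44. Plk1, a kinase of spindle assembly, was at 9.92, 14.5 and 7.304 CPM against 2.45, 2.71 and 2.59 CPM (-2.03 ± 0.38), again with every live return library under every ISS library. The cyclin gene Ccnb1, at 10 counts or fewer in every library, did not pass the filter on low counts, and the 3 tested members that overlapped were Cdc20 (-2.12), Trip13 (-0.53) and Bora (-0.25).

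Many promoters of mitotic genes carry a CCAAT box, which binds NF-Y, and a cell cycle homology region (CHR), which binds the DREAM and MuvB complexes that repress them in resting cells. Promoters from 250 bases before to 50 after the start, from RefSeq on GRCm38.p6 (mm10), were searched on both strands for CCAAT and for TTTGAA, letters that do not overlap each other. Of the 27 mitosis genes 22 matched the table, 18 of these held a CCAAT box (81.8%), 16 held TTTGAA (72.7%) and 16 held both (72.7%). Over the 9814 tested genes that matched, the shares were 42.2%, 14.2% and 5.86%. Among 22 genes of DNA replication, 15 held a CCAAT box (68.2%), 4 held TTTGAA (18.2%) and 3 held both (13.6%). A link between these letters and the fold changes was not tested. The promoters of 5 mitosis genes are shown because they carry both letters, which are in capitals here on whichever strand they lie, and each sequence reads 5′ to 3′ along the gene.
Cdk1, chr10:69352863-69353162, minus strand: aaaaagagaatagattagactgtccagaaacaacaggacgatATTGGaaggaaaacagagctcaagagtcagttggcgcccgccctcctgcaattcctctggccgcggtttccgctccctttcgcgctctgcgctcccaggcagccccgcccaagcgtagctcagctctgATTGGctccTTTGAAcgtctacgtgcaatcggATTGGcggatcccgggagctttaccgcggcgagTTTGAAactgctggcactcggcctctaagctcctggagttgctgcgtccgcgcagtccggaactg
Plk1, chr7:122159185-122159484, plus strand: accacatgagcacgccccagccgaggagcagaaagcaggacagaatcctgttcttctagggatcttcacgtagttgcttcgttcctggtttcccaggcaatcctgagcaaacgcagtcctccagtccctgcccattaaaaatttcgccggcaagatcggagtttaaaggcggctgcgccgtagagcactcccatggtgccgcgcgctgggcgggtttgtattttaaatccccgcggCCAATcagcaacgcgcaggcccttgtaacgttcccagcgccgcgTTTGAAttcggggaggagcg
Ccnb2, chr9:70421505-70421804, minus strand: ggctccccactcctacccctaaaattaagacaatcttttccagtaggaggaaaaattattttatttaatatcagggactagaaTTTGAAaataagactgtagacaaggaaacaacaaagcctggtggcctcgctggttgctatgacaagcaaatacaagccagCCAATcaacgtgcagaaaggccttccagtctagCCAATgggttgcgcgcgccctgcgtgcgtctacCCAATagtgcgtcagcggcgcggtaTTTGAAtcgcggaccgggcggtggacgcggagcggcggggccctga
Mki67, chr7:135716330-135716629, minus strand: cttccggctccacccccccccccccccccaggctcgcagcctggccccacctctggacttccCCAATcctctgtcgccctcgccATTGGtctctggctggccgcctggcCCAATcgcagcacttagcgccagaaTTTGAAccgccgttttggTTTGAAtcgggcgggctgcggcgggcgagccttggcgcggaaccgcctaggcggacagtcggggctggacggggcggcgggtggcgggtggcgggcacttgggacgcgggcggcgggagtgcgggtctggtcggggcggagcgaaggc
Kif11, chr19:37376132-37376431, plus strand: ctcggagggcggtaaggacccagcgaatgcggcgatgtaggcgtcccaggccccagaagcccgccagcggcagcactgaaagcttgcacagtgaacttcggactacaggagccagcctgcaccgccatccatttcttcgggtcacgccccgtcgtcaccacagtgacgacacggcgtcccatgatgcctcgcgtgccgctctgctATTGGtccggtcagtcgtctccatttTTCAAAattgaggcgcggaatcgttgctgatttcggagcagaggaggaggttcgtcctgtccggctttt
Kif11, the motor that separates the spindle poles, was at 15.8, 20.8 and 11.6 CPM in the ISS controls and 3.47, 5.77 and 2.503 CPM in the live return controls. Ccnb2, a mitotic cyclin, was at 7.58, 14.1 and 11.6 CPM against 3.67, 2.97 and 2.101 CPM. Both were without overlap between the arms, as were the other 3 genes whose promoters are shown. A match of letters is a description of the window and not a bound site.

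Genes of DNA replication and S phase lay the same way with smaller differences. Of 26 tested, 25 were below 0, and the median was -0.63. Without overlap were 10, all lower in the live return arm, against 5.57% of all genes. Uhrf1, which brings DNMT1 to hemimethylated DNA, was at 20.6, 32.3 and 23.2 CPM in the ISS controls and 8.56, 11.6 and 10.8 CPM in the live return controls (-1.29 ± 0.30), and it was the 1 member that DESeq2 called (adjusted p = 0.0377). Mcm5, a subunit of the replicative helicase, was at 27.9, 40.3 and 16.4 CPM against 8.97, 10.1 and 14.9 CPM (-1.31 ± 0.40), and Mcm3, another subunit, had a fold change of -0.92 ± 0.30. All 10 replication-dependent histone genes tested, of 13 in the count table, were below 0, with a median of -1.01 and 5 without overlap. Among them Hist1h1b was at 25.8, 26.9 and 17.1 CPM against 8.15, 6.96 and 6.35 CPM (-1.71 ± 0.31), Hist1h1a at -1.94 and Hist1h1e at -1.1 on the log2 scale. The summed histone level was 390.3, 356 and 241 CPM in the ISS controls and 184, 145 and 134 CPM in the live return controls, again without overlap.

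The Hedgehog pathway, which carries the growth signal from the follicle epithelium to the hair germ and dermal papilla, stood lower in the live return arm in its Gli transcription factors. This list was completed after Gli1 and Gli2 were seen among the genes of smallest p. The counts held 16 members, and the 14 tested were all below 0, with a median of -0.86. Of these, 7 did not overlap between the arms, against 5.57% of all genes. Gli1 (chr10:127329882-127341579), a transcription factor that is itself a target of the pathway, was at 13.3, 42.05 and 26.9 CPM in the ISS controls and 2.45, 2.04 and 2.995 CPM in the live return controls (-3.45 ± 0.49, DESeq2 adjusted p = 2.26e-06). The lowest ISS control was several times above the highest live return control. Gli2, the main activator, was at 25.3, 29.7 and 28.7 CPM against 7.54, 5.26 and 8.27 CPM (-1.99 ± 0.29), with the 3 libraries of each arm close together, and voom called it too (adjusted p = 0.0493). Gli3, the partner that acts mostly as a repressor, was at 24.8, 34.4 and 27.7 CPM against 11.2, 9.59 and 12.1 CPM (-1.4 ± 0.27). The receptor and target gene Ptch1 overlapped between the arms (-0.93 ± 0.35), and the signal transducer Smo was at -0.54 ± 0.24 without overlap. The ligand gene Shh did not pass the filter on low counts, with 6, 232 and 50 counts in ISS controls 1 to 3 and 2, 0 and 2 counts in live return controls 1 to 3. Hhip, a decoy receptor and target, held 11, 85 and 3 counts against 3, 3 and 10 and did not pass the filter either.

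Hair follicle stem cell genes had mostly lower levels in the live return arm. Of 18 tested, 16 were below 0, and the median was -0.87 (-0.56 without ISS control 1). Lower without overlap were 8, against 5.57% of all genes, and DESeq2 called 5 as lower, against 0.95%. Lgr5 (chr10:115450314-115587780), the R-spondin receptor that marks the lower bulge and the hair germ, was at 22.7, 23.5 and 11.1 CPM in the ISS controls and 0.408, 0.594 and 1.97 CPM in the live return controls. That is a fold change of -4.13 ± 0.65 (DESeq2 adjusted p = 2.26e-06), and the highest live return library lay far under the lowest ISS library. Lhx2, a LIM homeodomain factor of the follicle, was at 37.2, 35.4 and 17.1 CPM against 5.505, 5.35 and 3.08 CPM (-2.71 ± 0.43). Sox9, which the outer root sheath and its stem cells need, was at 49.7, 49.5 and 99.2 CPM against 18.4, 7.47 and 14.8 CPM (-2.29 ± 0.46). Foxc1, which holds activated stem cells back towards quiescence, had a fold change of -1.95 ± 0.33, and Tbx1, which sustains their self-renewal, of -2.2 ± 0.40. Other stem cell genes overlapped: Krt15 was at 2282, 1662 and 879 CPM against 1146, 1884 and 995 CPM (-0.26 ± 0.49), Cd34 at 0.61 ± 0.69 and Lgr6 at -0.65 ± 0.67 on the log2 scale.

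Signals around the follicle base stood lower as well. The follicle and signal lists share members, so their counts partly hold the same genes. Gli1 is in the Hedgehog and hair matrix lists, Lgr5 in the stem cell and Wnt lists, and Wif1 and Notum in the Wnt and dermal papilla lists. In the hair matrix list, 24 of 25 genes were below 0, with a median of -0.86 (-1.56 without live return control 1). Lower without overlap were 6, against 5.57% of all genes. Wnt10b, a ligand that starts hair growth, was at 6.42, 10.8 and 8.82 CPM in the ISS controls and 2.85, 3.48 and 2.23 CPM in the live return controls (-1.6 ± 0.39). Lef1, the nuclear partner of beta-catenin in the matrix, was at 2.53, 33.3 and 50.1 CPM against 2.45, 0.339 and 0.805 CPM (-4.74 ± 1.22), with ISS control 1 close to live return control 1. Dlx2, a homeobox gene, had a fold change of -4.7 ± 0.96 at a low level.

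Of 18 Wnt targets and antagonists, 10 were lower without overlap (5.57% of all genes) and 1, Sfrp4, was higher (4.76% of all genes). The median was -0.60 (-0.94 without live return control 1). The secreted antagonists Wif1 and Notum, both made in the dermal papilla and matrix in growing follicles, were at 1.49, 9.89 and 4.03 CPM and 0.972, 5.15 and 7.05 CPM in the ISS controls, and at 0.612, 0.0849 and 0.224 CPM and 0.612, 0.0849 and 0.0894 CPM in the live return controls. Axin2, a general Wnt target, overlapped fully at 111, 115 and 92.2 CPM against 103, 126 and 72.5 CPM (-0.083 ± 0.30). In the dermal papilla list 11 of 14 were below 0 (median -0.81), and Bmp7 was at 34.7, 34.4 and 44.1 CPM against 17.1, 16.6 and 15.5 CPM (-1.2 ± 0.25). Among BMP and TGF-beta genes 17 of 20 were below 0 (median -0.64, or -1.06 without live return control 3). Grem1, a BMP antagonist, had the largest difference of that list (-3.87 ± 0.80), and Id2, a BMP target, was at -1.64 ± 0.52.

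**Figure D2:**
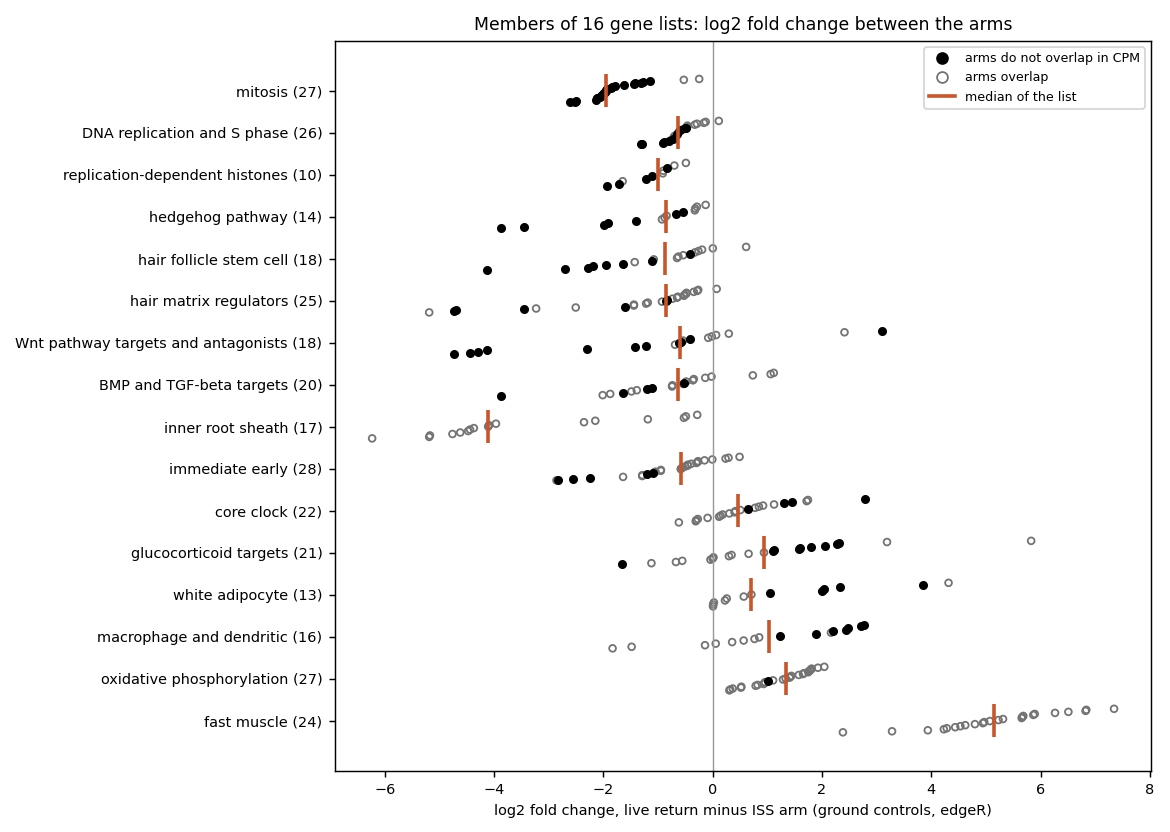
Log2 fold change between the arms (live return minus ISS, edgeR) of each tested member of 16 lists, with the number tested in brackets. Filled points mark genes whose arms do not overlap in CPM, open points those that do, and the orange bar is the median of the list. The mitosis list holds 24 filled points of 27, while inner root sheath and fast muscle genes lie far from 0 with 0 filled points.

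The products of hair growth did not separate by arm. Inner root sheath genes had a median of -4.11, the lowest of the lists described, and all 17 were below 0, yet 0 were without overlap. Their summed level was 11117, 6654 and 159249 CPM in ISS controls 1 to 3 and 28715, 2558 and 1146 CPM in live return controls 1 to 3. By this sum 1 library of each arm, ISS control 3 and live return control 1, was high. Without ISS control 3 the median was -0.50, and without live return control 1 it was -7.74. Trichohyalin (Tchh), the matrix protein of the inner root sheath, was at 8208, 3941 and 121187 CPM against 23824, 1583 and 646 CPM. Tchh made up most of the sum in every library. Krt71, an inner root sheath keratin, was at 2.72, 708 and 15674 CPM against 637, 4.67 and 24.8 CPM. ISS control 1 was lower than live return control 1 for Krt71, and ISS control 2 was higher. The 3 genes of smallest p in this list, Krt74, Crym and Padi3, were highest in ISS control 3, at 90.68, 153.1 and 267.7 CPM. In ISS control 2 they were at 2.85, 7.38 and 16.4 CPM, above the 1.22, 5.71 and 7.95 CPM of live return control 1.

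Hair shaft keratins and keratin-associated proteins behaved like the inner root sheath. Hair shaft keratins summed to 5278, 2980.3 and 7574 CPM in the ISS controls and 6396, 2504 and 1402 CPM in the live return controls, and their median of -1.37 became 0.42 without ISS control 3. Krt35, an early keratin of the shaft, was at 1.62, 71.9 and 262 CPM against 7.34, 0.1697 and 1.48 CPM. Krt32 and Dsc1 had fold changes of -3.17 ± 1.44 and -0.95 ± 0.52. Keratin-associated proteins, of which 41 were tested, had a median of -0.34, which was above 0 without ISS control 3, live return control 2 or live return control 3, and the lowest p values were those of Krtap17-1 (-2.46 ± 1.56), Krtap24-1 (-2.9 ± 1.63) and Krtap10-4 (-3.25 ± 1.88). Among these 6 libraries, ISS controls 1 and 2 therefore combined high mitosis genes with lower inner root sheath sums, and ISS control 3 had both high. Live return control 1 had low mitosis genes with a high sheath sum, and live return controls 2 and 3 had both low. This order of the sheath sums follows Tchh. Krt71, Krt74, Crym and Padi3 were higher in ISS control 2 than in live return control 1, as was Krt35. Melanocyte genes, of which 7 of 12 were tested, had a median of -2.01, or -0.66 without ISS control 3. Of the 7, 5 were below 0 and 2 above, the highest at 1.31. Dct, an enzyme of melanin synthesis that is also made in albino mice, was at 6.03, 12.5 and 88.9 CPM against 1.83, 2.29 and 0.536 CPM (-4.56 ± 1.2). Pmel was at -3.59 ± 1.03 and Trpm1 at -2.44 ± 0.81. These 3 did not overlap between the arms, and without ISS control 3 they were at -2.65, -1.81 and -1.41.

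**Figure D3:**
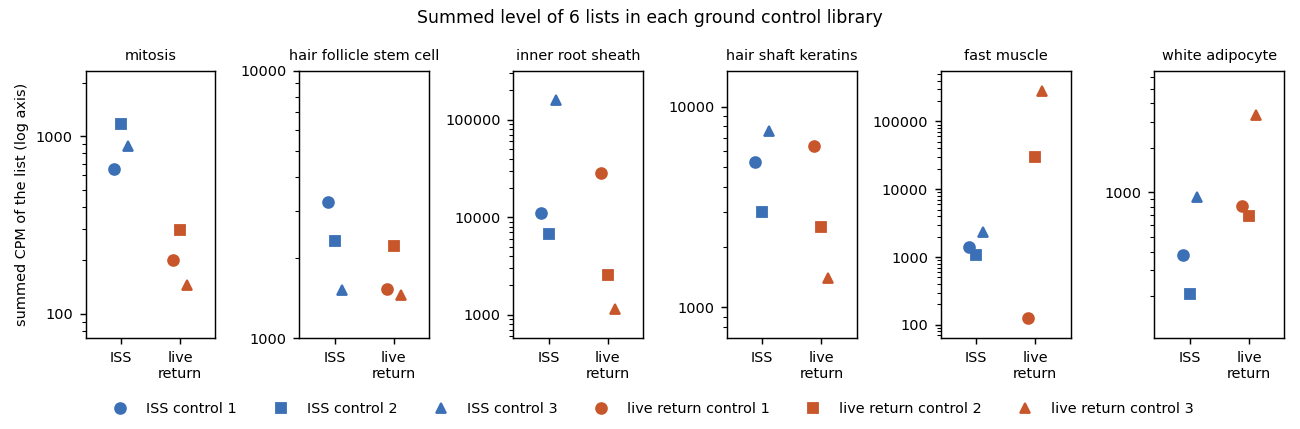
Summed CPM of 6 lists in each ground control library, on log axes that differ between panels, with ISS controls in blue and live return controls in orange. The arms separate for mitosis, while 1 library of each arm is high for the inner root sheath, and live return controls 3 and 2 lie above all others for fast muscle.

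Clock genes had mostly higher levels in the live return arm, led by Per genes and a PAR bZIP factor. Of 22 core clock genes, 17 were above 0, and the median was 0.46. Without overlap, 4 were higher (4.76% of all genes) and 0 lower (5.57% of all genes). Per2 (chr1:91415982-91459328), a repressor of CLOCK and BMAL1, was at 10.1, 10.9 and 8.06 CPM in the ISS controls and 33.4, 59.6 and 107 CPM in the live return controls. Every live return library lay above every ISS library by a wide margin, and the fold change was 2.78 ± 0.46 (DESeq2 adjusted p = 9.52e-05, voom adjusted p = 0.0493). Tef (chr15:81802673-81826863), a PAR bZIP activator of clock output, was at 36.8, 30.98 and 25.9 CPM against 72.2, 85.7 and 74.6 CPM (1.31 ± 0.26, DESeq2 adjusted p = 0.00335). Per3 was at 53.5, 45.5 and 28.2 CPM against 61.98, 152 and 134 CPM (1.45 ± 0.42), with live return control 1 just above the ISS controls.

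The other members lay closer together. Cry2, a partner of the PER proteins, was at 68.6, 47.6 and 51.4 CPM in the ISS controls and 98.7, 77.98 and 84.8 CPM in the live return controls without overlap (0.64 ± 0.27). Fold changes were 1.12 ± 0.44 for Cry1, 0.84 ± 0.39 for Hlf, 0.92 ± 0.49 for Dbp, 0.77 ± 0.50 for Nr1d2, 0.51 ± 0.35 for Rora and 0.40 ± 0.29 for Per1, each with overlap between the arms. Bhlhe41 had a fold change of 1.72 ± 0.94 that was -0.29 without live return control 3. Genes that peak on the other side of the cycle were near or below 0, with Arntl (BMAL1) at -0.30 ± 0.30, Npas2 at -0.62 ± 0.48 and Clock at 0.18 ± 0.27. Nr1d1 (REV-ERB alpha) was at 136, 112 and 43.8 CPM against 110.5, 70.6 and 60.8 CPM (-0.27 ± 0.46), with the arms overlapping.

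Per genes are driven through E-boxes, which CLOCK and BMAL1 bind, and D-boxes, which TEF, DBP and HLF bind. CACGTG (E-box) lay in the promoter windows of 5 of the 17 core clock genes that matched (29.4%) and of 11.6% of the tested genes, and TTATGTAA (D-box) in 1 of 17 (5.88%) and 0.652%. The 2 windows below are shown since Tef and Per3 were higher without overlap and hold these letters, the E-box or the D-boxes being in capitals.
Tef, chr15:81802423-81802722, plus strand: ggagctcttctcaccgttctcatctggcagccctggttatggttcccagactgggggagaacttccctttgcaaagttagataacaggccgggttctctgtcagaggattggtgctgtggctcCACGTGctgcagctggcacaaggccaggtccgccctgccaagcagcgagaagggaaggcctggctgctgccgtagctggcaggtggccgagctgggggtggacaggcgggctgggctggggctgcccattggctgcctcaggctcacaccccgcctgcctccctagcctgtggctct
Per3, chr4:151044616-151044915, minus strand: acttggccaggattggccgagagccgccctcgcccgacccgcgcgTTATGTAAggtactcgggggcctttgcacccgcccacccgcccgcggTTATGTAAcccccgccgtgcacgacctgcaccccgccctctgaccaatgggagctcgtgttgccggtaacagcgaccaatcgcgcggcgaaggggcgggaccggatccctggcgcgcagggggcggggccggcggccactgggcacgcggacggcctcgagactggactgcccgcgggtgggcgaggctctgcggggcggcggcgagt
Clock output genes had a median of 0.41 over 12 genes, or 0.22 without ISS control 3. Their 3 genes of smallest p were Tsc22d3, which the glucocorticoid list also holds, Timeless (-0.90 ± 0.45) and Tspan4 (1.5 ± 0.89), the latter both with overlap.

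Glucocorticoid-responsive genes had mostly higher levels in the live return arm. Of 21 tested, 15 were above 0, and the median was 0.94. Without overlap, 8 were higher (4.76% of all genes) and 1, Mertk, was lower (5.57% of all genes). DESeq2 called 6 higher (0.865% of all genes) and 1 lower (0.95% of all genes). Fkbp5 (chr17:28398753-28486149), a co-chaperone that dampens the glucocorticoid receptor, was at 9.204, 5.85 and 15.1 CPM in the ISS controls and 54.03, 38.95 and 50.2 CPM in the live return controls. The fold change was 2.27 ± 0.40 (DESeq2 adjusted p = 4.05e-04, voom adjusted p = 0.0493), and the lowest live return library lay well above the highest ISS library. Zbtb16 (chr9:48654297-48835945), the transcription factor PLZF, was at 78.8, 71.7 and 112 CPM against 247, 284 and 267 CPM (1.6 ± 0.30), the libraries of each arm lying close together. Tsc22d3, which codes for GILZ, was at 40.1, 57.7 and 57.2 CPM against 94.4, 176 and 194 CPM (1.59 ± 0.36).

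Klf15 (2.05 ± 0.60), Klf9 (1.09 ± 0.43), Plin4 (2.31 ± 0.66), Sult1a1 (1.81 ± 0.43) and Cebpd (1.11 ± 0.49) were also higher without overlap. Other members lay near 0 or followed 1 library. Sgk1 was at 67.4, 35.4 and 50.6 CPM in the ISS controls and 39.1, 45.6 and 69.9 CPM in the live return controls (0.013 ± 0.35), and the metallothionein genes Mt1 and Mt2 had fold changes of -0.002 ± 0.56 and -0.56 ± 0.67. Pdk4, a brake on glucose oxidation that is abundant in fasting muscle, was at 1.75, 1.53 and 2.02 CPM against 1.43, 19.5 and 276 CPM, with 1 library, the muscle-rich live return control 3, far above all others. The median of the list was 0.32 without that library, while the fold changes of Fkbp5, Zbtb16 and Tsc22d3 were 2.23, 1.59 and 1.38.

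Immediate early genes, which are transcribed within minutes of a stimulus and also during tissue handling, had mostly lower levels in the live return arm. Of 28 tested, 25 were below 0 (median -0.58, or -1.12 without live return control 1). Lower without overlap were 5, against 5.57% of all genes. Egr1, a zinc finger factor, was at 196, 74.1 and 97.7 CPM in the ISS controls and 28.5, 19.2 and 14.9 CPM in the live return controls (-2.56 ± 0.47, DESeq2 adjusted p = 3.47e-04). Fos was at 376, 51.7 and 181 CPM against 45.1, 11.2 and 29.9 CPM (-2.83 ± 0.81), with a wide spread within each arm, and Ctgf, a target of YAP, was at -2.25 ± 0.72. Klf4 and Jun overlapped between the arms (-0.57 ± 0.50 and -0.54 ± 0.37). The ER stress list had a median of -0.57, which was -0.20 without ISS control 3, with the chaperone gene Pdia4 at 68.2, 76.2 and 113 CPM against 43.2, 36.3 and 52.7 CPM (-0.96 ± 0.30), Sdf2l1 at -1.03 ± 0.38 and Calr at -1.05 ± 0.42. In the DNA methylation list, which the study's question concerns, the median was -0.14, with Dnmt1 at -0.47 ± 0.29 and Uhrf2 at 0.27 ± 0.26. Only Uhrf1 of 15 genes was without overlap, a share near the 5.57% of all genes. These are RNA levels, and DNA methylation itself was not examined here.

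Macrophage genes had mostly higher levels in the live return arm, and MHC class II genes did not. Of 16 macrophage and dendritic cell genes, 13 were above 0 and 3 below, the lowest at -1.83. Without overlap, 7 were higher, against 4.76% of all genes, and 0 lower, against 5.57%. The median of the list was 1.04, or 0.52 without live return control 1. Lyz2, lysozyme, was at 0.907, 0.348 and 0.756 CPM in the ISS controls and 6.93, 2.71 and 3.75 CPM in the live return controls (2.72 ± 0.62, DESeq2 adjusted p = 0.00921). C1qa, a chain of complement C1q, was at 2.85, 1.67 and 10.8 CPM against 29.6, 15.7 and 21.5 CPM (2.2 ± 0.70), and C1qb was at 2.78 ± 0.87. Csf1r, the receptor that macrophages need, overlapped at 14.4, 40.3 and 12.3 CPM against 23.9, 14.8 and 31.4 CPM (0.055 ± 0.52). The summed level of the list was 53.3, 93.01 and 81.4 CPM against 211, 99.2 and 207 CPM. All 7 MHC class II genes tested were below 0 (median -1.38, or -0.19 without ISS control 2), with every one overlapping, ISS control 2 highest for H2-Eb1 at 48.94 CPM, and fold changes of -1.43 ± 0.77 for H2-Eb1, -1.77 ± 1.02 for H2-DMb1 and -1.45 ± 0.63 for their activator Ciita.

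White adipocyte genes were above 0 in 13 of 13 tested, with a median of 0.71 (1.18 without ISS control 3). Higher without overlap were 5, against 4.76% of all genes. Retn, which codes for resistin, was at 1.75, 1.39 and 3.78 CPM in the ISS controls and 9.79, 13.8 and 9.52 CPM in the live return controls (2.33 ± 0.48, voom adjusted p = 0.0493). Adipoq, which codes for adiponectin, was at 3.69, 3.83 and 16.1 CPM against 31.6, 35.7 and 26.1 CPM (2.04 ± 0.61), and Cfd, the adipokine adipsin, was at 2.001 ± 0.60. Plin1 and Fabp4 of the same list differed less, with Plin1 at 0.26 ± 0.39 and Fabp4 at 0.0066 ± 0.84, whose level was highest in ISS control 3 (489.9 CPM). The lipid droplet gene Plin4, named above in the glucocorticoid list, was higher without overlap. In the growth hormone axis, Igf1 was at 0.972, 0.627 and 1.26 CPM against 2.65, 3.39 and 6.21 CPM (2.17 ± 0.55), Igfbp5 at 2.61 ± 0.75 and Ghr at 1.2 ± 0.44, all without overlap, while the median of the list (0.67) was 0.02 without live return control 3. Of 19 endothelial genes in the count table, 11 passed the filter on low counts. All 11 were above 0 (median 1.92, 0.78 without live return control 3), among them Lyve1 (2.78 ± 0.84), Vwf (1.42 ± 0.50) and Flt1 (2.27 ± 0.83). Lyve1 rested on 7, 10 and 0 counts in ISS controls 1 to 3. Flt1 overlapped between the arms, and without live return control 3 Lyve1 was at 1.99, Vwf at 0.72 and Flt1 at 0.78.

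Striated muscle RNA marked individual libraries. The fast muscle list summed to 1419, 1056 and 2319 CPM in ISS controls 1 to 3 and 126, 30015 and 280922 CPM in live return controls 1 to 3, which put live return control 1 under all ISS controls and live return controls 2 and 3 above them. Of 24 fast muscle genes, 7 were at 0 counts in live return control 1. The median was 5.15, with 0 of 24 without overlap, and 1.94 without live return control 3. Ttn, titin, was at 641, 438 and 686 CPM against 9.38, 21264 and 178678 CPM, Neb, nebulin, at 66.05, 33.8 and 59.7 CPM against 10.8, 1495 and 24407 CPM, and Actn3 at 6.61, 9.05 and 20.9 CPM against 0.612, 220.0 and 3920.1 CPM. Slow muscle genes (median 4.95) were at 0.15 without live return control 3, with Tnnc1 at 264.7 CPM, Mb at 889.4 CPM and Mybpc1 at 2633.7 CPM in that library. Oxidative phosphorylation genes followed the same library: the median was 1.33 with all 27 above 0, and -0.38 without live return control 3, and Ndufs1 was at 28.3, 26.2 and 23.9 CPM against 19.8, 40.9 and 209 CPM, Ndufb5 at 2.04 ± 0.89 and Cox6c at 1.57 ± 0.68. Genes of fatty acid oxidation and lipid uptake had a median of 1.03, or 0.10 without that library, with Cd36 at 3.89, 2.71 and 6.297 CPM against 16.3, 19.5 and 173 CPM and Lpl at 14.8, 9.54 and 29.7 CPM against 43.02, 57.4 and 379 CPM. The part of muscle RNA in these last lists was not tested beyond leaving out the library. Marker lists of liver, intestine, pancreas, kidney, B cells and nervous tissue summed to at most 69.6 CPM in any of the 6 libraries. Members of the liver list went different ways. Ahsg held 40, 26 and 1 counts in ISS controls 1 to 3 and 0, 0 and 0 in live return controls 1 to 3. Apoa1 held 28, 41 and 1 against 2, 0 and 2. Neither passed the filter on low counts, while Cyp2e1 was higher in the live return arm. The mammary and salivary gland list summed to 29.2, 17.1 and 16.6 CPM in ISS controls 1 to 3 and 22.8, 28.4 and 328 CPM in live return controls 1 to 3, so that live return control 3 stood apart there too, and all 6 of its genes tested were above 0 (median 3.02).

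The ESE mice of the same arms, 5 of each, share no library with the ground controls and give side values, their arm being taken from the study's sample table. In a fit of all 16 libraries, 0 of 14381 genes passed for the ESE arm difference (782 at an unadjusted p under 0.05, 3.96% of genes being higher and 1.48% lower in the live return arm, smallest adjusted p 0.229), and 0 passed for the difference of the arm effects between ESE mice and ground controls (690 at an unadjusted p under 0.05, smallest adjusted p 0.999). Of all genes 50.9% were above 0 in the ESE mice. Mitosis genes had a median of -0.98 there, with all 27 below 0, beside -1.96 in the ground controls. Core clock genes had medians of 0.41 and 0.46. Per2 was at 1.73 ± 0.46 in the ESE mice beside 2.78 ± 0.46, Tef at 1.18 ± 0.49 beside 1.31 ± 0.26 and Per3 at 1.18 ± 0.42 beside 1.45 ± 0.42. Fold changes of other genes lay near 0 in the ESE mice: Fkbp5 was at -0.0056 ± 0.38 beside 2.27 ± 0.40, Zbtb16 at -0.38 ± 0.36 beside 1.6 ± 0.30, Lgr5 at 0.13 ± 0.78 beside -4.13 ± 0.65, Gli1 at -0.19 ± 0.76 beside -3.45 ± 0.49 and Thbs1 at -0.14 ± 0.38 beside -2.36 ± 0.30. None of these differences between ESE mice and ground controls passed the test of the difference (adjusted p = 0.999 for each). The genes named here were picked on their values in the ground controls, which favours larger fold changes there. Fold changes of the ground controls are from the fit of those libraries alone, and those of the ESE mice from the fit of all 16. White adipocyte genes had a median of 2.98 in the ESE mice beside 0.71, and hair follicle stem cell genes 0.31 beside -0.87.

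**Figure D4:**
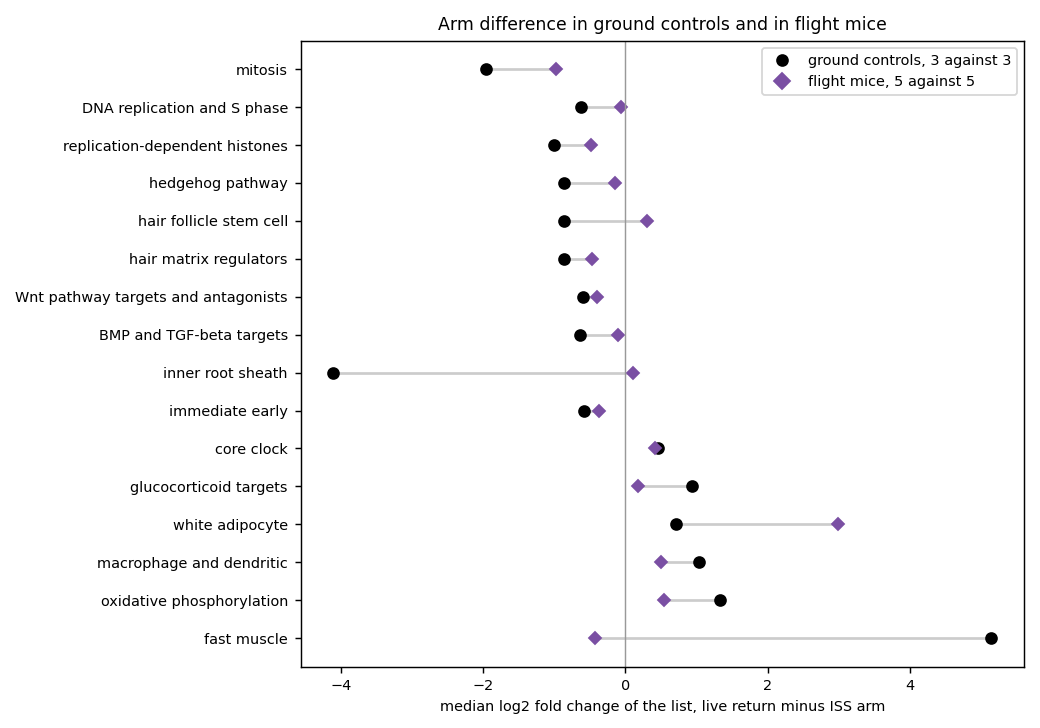
Median log2 fold change of 16 lists, live return minus ISS arm, in the ground controls (black circles, 3 against 3) and in ESE mice (purple diamonds, 5 against 5). Most of the lists lie on the same side of 0 in both, mitosis (-1.96 and -0.98) and core clock (0.46 and 0.41) among them. Hair follicle stem cell, inner root sheath and fast muscle genes lie on opposite sides.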

How the data were processed

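Femoral skin RNA of 16 mice was converted to cDNA, captured with exon baits and sequenced as paired reads of 100 bases. Per the labels and the study's methods, the authors used STAR for alignment against mm10 and featureCounts for gene counting, after discarding multiply mapped and poor-quality reads. The deposited counts were raw, for 14858 genes, and whether they used strand is not given in the sources used here, so antisense partners cannot be told apart. The authors also deposited an RNA integrity score and the DV200 percent of each RNA sample, and mapping statistics, as counts and shares of reads. The log2 FPKM, fold change, p and FDR columns in the same workbook were not used.

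Libraries were named by arm from the library names, with replicate numbers in accession order. The 6 ground controls were fitted alone with edgeR 4.0.16 in R 4.3.3: filterByExpr, TMM scaling, robust quasi-likelihood F test and Benjamini-Hochberg adjustment over all genes tested, with 0.05 as the threshold. DESeq2 1.42.0, the edgeR likelihood ratio test, limma 3.58.1 (voom with quality weights), RLE and upper quartile scaling, no filter, a filter of 10 counts in each library, a fit without robust estimation, fits of all 16 libraries, removal of Rn45s and leaving out each library were the alternatives, and removal of Rn45s with the muscle lists was added after seeing the data. The SE was derived from the fold change, p and degrees of freedom. The scripts were tested on simulated data. The gene members and lists were chosen with earlier results of these data known, and the Hedgehog list after its values were seen. Named genes were the 10 of smallest p in each direction with an average log2 CPM over 0, up to 12 core clock genes and the 3 of smallest p of each list described, with marker genes of libraries that stood apart. Other members named beside them (Gli3, Krt15, Axin2, Sgk1, Csf1r and the like) were chosen after their values were seen, and some members of the lists are not reported here by name. Nothing says that the mice were housed apart, so p-values measure the spread between these libraries. Total counts of 5628795 to 22593931 per library set the counting error.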

Additional observations from a re-analysis of the deposited data

How the results depend on the processing

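With the 6 ground controls, DESeq2 called 235 genes, the edgeR likelihood ratio test 130 and limma-voom with quality weights 11, against 0 by the quasi-likelihood test, and 10 genes were called by all 3 of these tools. Other scalings, filters and fits of the quasi-likelihood test, and leaving out each library (0 to 0 genes), called 0 genes. Of 96 named genes, DESeq2 called 47, the likelihood ratio test 36 and voom 9. One named gene turned in sign, Bhlhe41, which was 1.72 with all libraries and ranged from -0.29 without live return control 3 to 2.19 without live return control 2, and the cause was not tested. Among the lists compared in the report, medians that turned in sign on leaving out 1 library were those of hair shaft keratins (0.42 without ISS control 3), keratin-associated proteins (0.36 without ISS control 3), oxidative phosphorylation (-0.38 without live return control 3) and DNA methylation enzymes (0.06 without ISS control 3). The mitosis median ranged from -2.09 to -1.67, that of the Hedgehog pathway from -0.86 to -0.77 and that of the core clock from 0.33 to 0.62. Among the lists given only as values, medians also turned for sebaceous gland (0.12 without ISS control 1), differentiated epidermis (-0.35 without live return control 1), p53 targets (0.16 without ISS control 3), heat shock and chaperones (0.099 without ISS control 3), fatty acid synthesis (-0.078 without ISS control 3) and inflammatory and wound genes (0.064 without live return control 3). The filter of 10 counts in each library left 64 of the named genes. No paired analysis was possible because replicate numbers were given in accession order and pair no samples. With 3 libraries an arm, depths that differ within each arm, and muscle or root sheath RNA dominating single libraries, small differences were not detectable. The date, hour and mode of killing, age at killing and time in the habitat cannot be told apart from the arm.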

Other observations

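Further lists of skin and stress genes are given as values. Basal epidermis genes had a median log2 fold change of -0.36, differentiated epidermis 0.053, sebaceous gland -0.28, cholesterol synthesis -0.51, fatty acid synthesis 0.0064, heat shock and chaperones -0.027, p53 targets -0.11 and cytosolic ribosomal proteins -0.18. Interferon-stimulated genes had a median of 0.40, with 15 of 20 above 0 and 2 higher without overlap, against 4.76% of all genes. The 6 T and NK cell genes tested were all below 0 (median -0.68), at a summed level of 19.2, 34.1 and 7.56 CPM in ISS controls 1 to 3 and 13.9, 11.2 and 13.7 CPM in live return controls 1 to 3. Inflammatory and wound genes summed to 3604, 1021 and 3686 CPM against 5372, 932 and 244 CPM, which put live return control 1 highest and live return control 3 lowest, so that this list ordered single libraries and not the arms.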
